A study of Mus musculus with 4 samples.

Results

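Glucocorticoid signalling was followed in K7M2 cells through 10 genes of the 18193 named genes on the array, represented by 26 probe sets. They are Hsd11b1 and Hsd11b2, which encode the enzymes that activate and inactivate glucocorticoid, H6pd, which supplies the cofactor of the first, the receptor gene Nr3c1, and 6 target genes of that receptor, Fkbp5, Tsc22d3, Per1, Sgk1, Klf9 and Dusp1. Hsd11b1 was chosen by its large difference between the groups on these same arrays. The other 9 genes were chosen for their place in the pathway, with results of this comparison already known. The values of all 10 are therefore a description and carry no test. K7M2 is a mouse osteosarcoma line that metastasises readily, grown here in medium with serum. The labels name no added glucocorticoid. One array came from K7M2 cells over-expressing GFP and 3 arrays (replicates 1 to 3) from K7M2 cells over-expressing ezrinT567A-GFP. Ezrin is a protein that joins membrane to actin, and in this form its regulatory threonine is replaced by alanine. No label names the promoter of either transgene, and none says that the replicates came from different cultures or clones. Their spread may therefore be technical.

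Active glucocorticoid (corticosterone in mice, cortisol in humans) and its inert keto form are interconverted inside the cell. The product of Hsd11b1, in the lumen of the endoplasmic reticulum, regenerates the active steroid with NADPH that H6pd makes there, and the product of Hsd11b2 runs the opposite way. Bound steroid releases the glucocorticoid receptor from its chaperones, and the receptor then enters the nucleus, where it induces genes such as Fkbp5 and Tsc22d3 through palindromic response elements and represses inflammatory genes. In osteoblasts Hsd11b1 is known to raise the cell's sensitivity to glucocorticoid.

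All values are log2 expression as the authors deposited it, after RMA, a method that summarises and normalizes probe sets. Array medians lay between 3.85 and 3.89, and the median SD of a gene over the 3 ezrinT567A-GFP arrays was 0.13. A gene with several probe sets is represented by the one with the highest mean over the 4 arrays, and a difference is the ezrinT567A-GFP mean minus GFP. Hybridization spike-ins averaged 9.32 on the GFP array and between 10.1 and 11.1 on the others, with replicate 2 highest. 18S rRNA probe sets averaged 9.09 on the GFP array and 7.65, 11.3 and 7.76 on replicates 1, 2 and 3. Of 8 measured osteoblast markers, Col1a1, Col1a2, Sparc and Sp7 lay above the median level of all genes (5.04), while Alpl, Ibsp, Pth1r and Dlx5 lay below it, at 2.34 to 4.02.

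Hsd11b1 had the 5th lowest difference of all genes. Its level was 9.31 on the GFP array and 5.87, 6.07 and 5.92 on ezrinT567A-GFP replicates 1, 2 and 3. The ezrinT567A-GFP arrays lay within 0.19 of each other and far below GFP. The mean of 5.95 ± 0.10 (SD, n = 3) was lower than GFP by -3.36, which is 10.3-fold, and the differences of single arrays ran from -3.44 to -3.24. The gene has 1 probe set on this array, so no further probe set can be set beside it. The ezrinT567A-GFP level still exceeded the array medians, at the 59.2nd percentile of genes, whereas GFP stood at the 93.2nd.

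**Figure D1:**
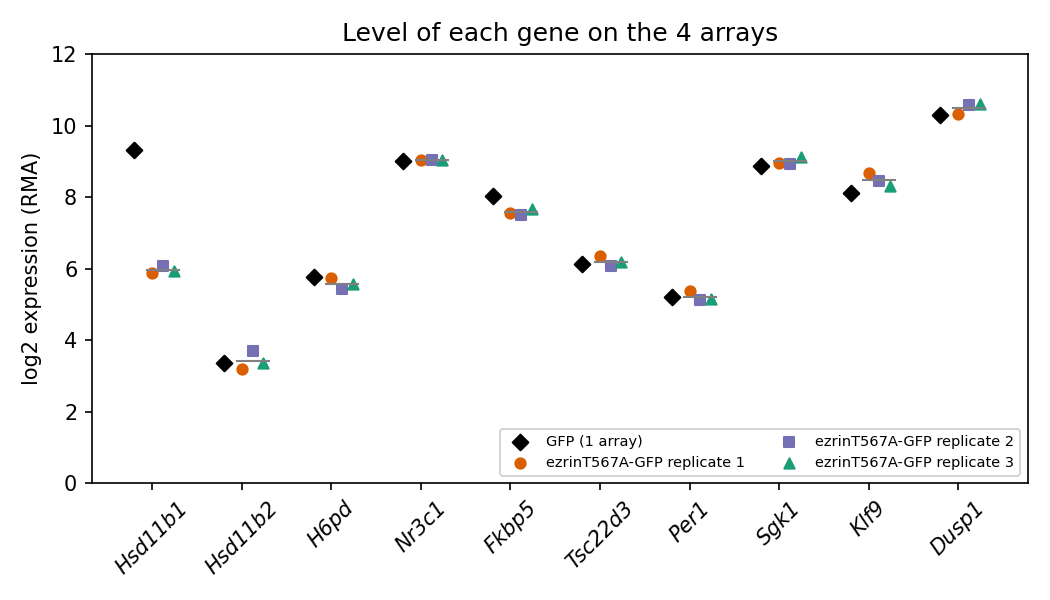
Level of each of the 10 genes (log2 expression, vertical axis) on the GFP array (black diamonds) and the 3 ezrinT567A-GFP arrays (coloured points), with a grey line at their mean. Hsd11b1 goes from 9.31 to a mean of 5.95, and the other 9 genes lie within 0.44 of GFP in their means.

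The window of 250 bases before to 50 bases after the start of Hsd11b1 is shown because this gene carries the large difference. It is from RefSeq (GRCm38.p6, chr1:193242311-193242610, minus strand) and is printed 5′ to 3′ on the strand of the gene. It was searched on both strands for 6 motifs: the glucocorticoid response element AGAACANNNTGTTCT, its single arm AGAACA, a C/EBP-like core TTGCNNAA, TATAAA, the E-box CACGTG and the cyclic AMP element TGACGTCA. A full element also holds the single arm on each side. None of the 6 was found here, which says only that those letters are not in this window.
Hsd11b1: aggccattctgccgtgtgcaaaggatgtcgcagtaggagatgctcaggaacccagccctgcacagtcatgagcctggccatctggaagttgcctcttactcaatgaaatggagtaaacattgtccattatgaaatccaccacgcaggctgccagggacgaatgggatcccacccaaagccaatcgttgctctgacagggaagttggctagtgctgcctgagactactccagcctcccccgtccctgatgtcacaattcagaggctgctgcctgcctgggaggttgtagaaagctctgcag

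Hsd11b1 lies on chromosome 1, whose genes were lower as a group. Among genes above the median level, the 510 of chromosome 1 had a median difference of -0.34, the lowest of any chromosome, and 72.7% of them were below GFP on all 3 ezrinT567A-GFP arrays. Over all genes above the median level that share was 29.6%. Hsd11b1, chosen for its large difference, differed by -3.36, and the part of this shift in that result was not tested.

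Its measured neighbours, 5 on either side in the gene table's order, did not share one pattern. Of the 10, 5 were below GFP on all 3 arrays, as were 25.6% of all genes. Among the genes of chromosome 1 above the median level that share was 72.7%. Lamb3, a chain of the basement membrane protein laminin-332, was the neighbour with the largest difference. It was 7.56 in GFP and 6.04, 5.22 and 5.61 in replicates 1, 2 and 3, a difference of -1.94. Utp25, a ribosome assembly factor, and the semaphorin receptor gene Plxna2 differed by -0.40 and -0.34, each with all 3 arrays below GFP. Below on all 3 arrays were also A130010J15Rik (-0.68) and Gm15867 (-0.15), both under the median level of all genes. The nearest genes, Traf3ip3 (-0.01) and G0s2 (0.09), were dim, at 3.09 and 2.99 in GFP, and had arrays on both sides of GFP. Syt14, Camk1g and Mir205hg were dim too, with differences of 0.01, 0.04 and 0.02. Of the 10 neighbours, 3 lay above the median level of all genes, namely Utp25, Lamb3 and Plxna2.

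**Figure D2:**
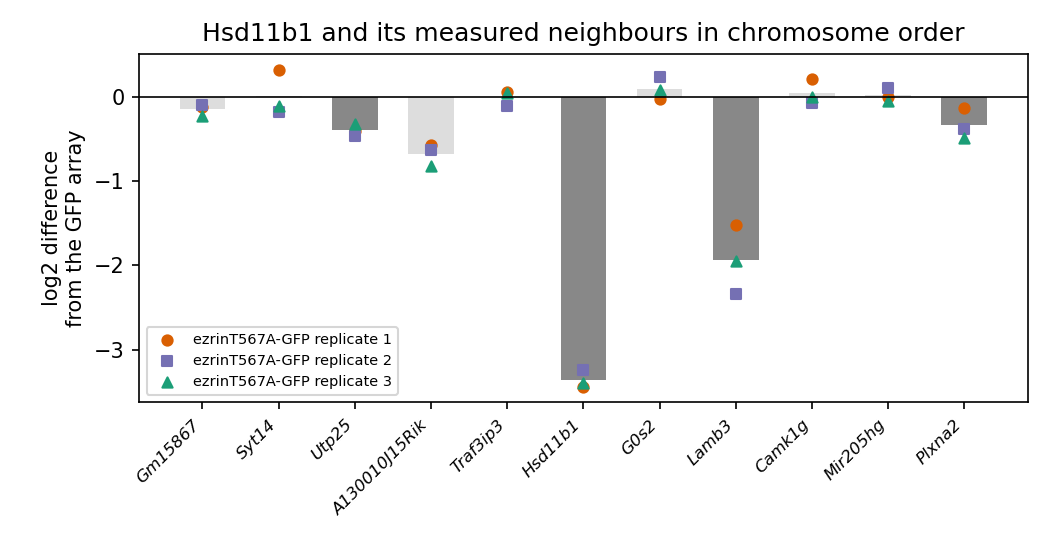
Difference from the GFP array (log2, vertical axis) of Hsd11b1 and the 5 measured genes on either side of it, in chromosome order and not to scale. Bars are means of the 3 ezrinT567A-GFP arrays, points are single arrays, and dark bars mark genes above the median level. Hsd11b1 (-3.36) and Lamb3 (-1.94) stand below the rest, between which lies the dim G0s2 (0.09).

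Markers of other cell types were read on the same arrays, because Hsd11b1 is abundant in adipocytes and hepatocytes. Of the adipocyte markers 0 of 6, and of the hepatocyte markers 0 of 7, lay above the median level. The mean level of the adipocyte markers was 3.20 in GFP and 3.17 to 3.25 in ezrinT567A-GFP. Adipoq, which defines adipocytes, was at 1.86 to 1.98. Cidec differed by 0.18 and Lipe by -0.10 (probe sets -0.10 to 0.13). Fabp4 differed by -0.03 by its brightest probe set, but its 4 probe sets ran from -1.66 to 0.19. The hepatocyte markers averaged 3.67 in GFP and 3.69 to 3.78 in ezrinT567A-GFP, with Alb at 2.19 to 2.58. Adipoq and Alb lay below the lower quartile of the arrays (2.55 to 2.62). Alb differed by 0.16 and Tat, at 4.75 in GFP, by 0.18.

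Epithelial markers were lower alongside Hsd11b1. Of 10 measured, 9 were below GFP on all 3 ezrinT567A-GFP arrays and 5 were at least 2-fold lower, where 25.6% and 0.704% of all genes were. Their mean level was 4.78 in GFP and 3.32, 3.66 and 3.40 in replicates 1, 2 and 3. Of the 10, 2 lay above the median level of all genes. The basal keratin gene Krt14 had a difference of -2.80 and the desmosomal gene Perp one of -2.79. Perp has 1 probe set, while the 3 probe sets of Krt14 disagreed, from -2.80 to 0.08. Those of Krt8 (-0.42 to 0.32) and Trp63 (-0.31 to 0.0018) disagreed in sign too. Those of Krt17 (-2.54 to -0.20) and Epcam (-0.43 to -0.08) differed in size. The simple-epithelial keratin gene Krt18 was dim at 2.25 in GFP and was the member not below it. Because the lists were chosen with earlier results of these data known, nothing is read from these counts. The part of epithelial cells in the result for Hsd11b1 was not tested.

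Macrophage and endothelial markers had median differences of 0.08 over 8 genes and 0.02 over 6 genes. Ptprc, which marks leukocytes, was at 2.10 to 2.22, although Csf1r was at 11.9 to 12.2 and Cd14 was 0.94 above GFP. Pecam1, which marks endothelium, was at 2.44 to 2.93 and differed by 0.13. Cdh5, at 3.70 in GFP, differed by -0.24 with all 3 arrays below GFP, but by 0.20 by a further probe set.

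The genes closest to Hsd11b1 in their pattern over the 4 arrays, by Euclidean distance after centring each gene on its mean, were Ppbp (distance 0.08), Amhr2 (0.20), Perp (0.52), Krt6a (0.63) and Dmkn (0.75). Ppbp, a chemokine gene best known from platelets, was 9.17 in GFP and 5.81, 6.04 and 5.85 in replicates 1, 2 and 3. Amhr2 encodes the receptor of anti-Müllerian hormone, Krt6a a keratin and Dmkn a secreted epidermal protein. The 5 genes lie on chromosomes 5, 15, 10, 15 and 7, so none shares the chromosome of Hsd11b1. Likeness over 4 arrays with a single GFP array mostly reflects the size of one difference.

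Hsd11b2, the opposing enzyme and a marker of mineralocorticoid target tissues, was dim and without a clear side. It was 3.35 in GFP and 3.21, 3.69 and 3.37 in replicates 1, 2 and 3, a difference of 0.07 (SE 0.22, limma 95% interval -0.52 to 0.66). The GFP value lay inside the range of the ezrinT567A-GFP arrays, and without replicate 2 the difference was -0.06. All 4 values were below the array medians, so they are not shown to exceed background.

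H6pd, which makes NADPH beside Hsd11b1 in the endoplasmic reticulum, was slightly lower. It was 5.76 in GFP and 5.73, 5.44 and 5.58 in replicates 1, 2 and 3, a difference of -0.18 (SE 0.16, limma 95% interval -0.62 to 0.26). All 3 arrays lay below GFP, but replicate 1 by only -0.03, and without replicate 2 the difference was -0.11. Its promoter window has 1 single arm of the response element and a pair of C/EBP-like cores. Such a core was in 10.8% of all windows, and windows of Sgk1 and Per1 held it too.

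The steroid and NADPH list held 11 measured genes, of which 0 passed limma's test over all genes (adjusted p under 0.05) in either direction, against 0.0% of all genes. The unadjusted p was under 0.05 for 3 of them, one being Hsd11b1 itself, and for 14.0% of all genes. Of the 11 genes 6 were higher and 5 lower, with a median of 0.07, beside 0.03 over all genes. Pgd, which makes NADPH in the cytosolic pentose phosphate pathway, was 9.58 in GFP and 10.4, 9.95 and 10.2 in replicates 1, 2 and 3 (0.59, SE 0.19). Pgls, the lactonase before it, differed by 0.51 (SE 0.13) and G6pc3, a glucose-6-phosphatase, by 0.47 (SE 0.24). Slc37a4 carries glucose-6-phosphate, the substrate of H6pd, into the endoplasmic reticulum and differed by -0.34 (SE 0.13), with all 3 arrays between 5.81 and 5.94 against 6.23 in GFP.

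Other steroid and retinoid dehydrogenases formed a list of 25 measured genes, with a median difference of 0.12 beside 0.03 over all genes. Of the 25 genes 18 were higher and 7 lower, as were 10201 and 7977 of all 18193 genes. At least 2-fold lower were 0 of them, beside 0.704% of all genes. Limma's test passed 0, and 5 had an unadjusted p under 0.05, beside 14.0% of all genes. Hsd17b10, a mitochondrial member, was 9.25 in GFP and 10.2, 10.1 and 10.1 in replicates 1, 2 and 3 (0.86, SE 0.09). Rdh11, a retinal reductase, differed by 0.75 (SE 0.13) and Dhrs7 by 0.66 (SE 0.33, probe sets 0.14 to 0.66). H2-Ke6, also called Hsd17b8, differed by -0.46 (SE 0.15).

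The glucocorticoid receptor gene Nr3c1 was close to GFP by its brightest probe set, at 9.00 in GFP and 9.05, 9.03 and 9.03 in replicates 1, 2 and 3. The difference was 0.04 (SE 0.10, limma 95% interval -0.22 to 0.30). Its 6 probe sets did not share a side. Those all below GFP numbered 3, and 1, the brightest, lay all above it, with differences from -0.41 to 0.10. The lowest of them was 7.41 in GFP and 7.02, 6.64 and 7.32 in replicates 1, 2 and 3, a spread of 0.34 (SD, n = 3). The mean of the 6 probe sets gave a difference of -0.10, on the other side of 0 from the brightest one.

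The receptor's chaperones and coregulators had a median of 0.0026 over 21 measured genes, 11 higher and 10 lower. Of these 0 passed limma's test, against 0.0% of all genes. An unadjusted p under 0.05 was found for 4, beside 14.0% of all genes. Dnajb1, a cochaperone, was 0.41 (SE 0.16) above GFP. The coactivator genes Ncoa2 (-0.57, SE 0.29, probe sets -0.57 to 0.10), Med14 (-0.53, SE 0.15, probe sets -0.53 to 0.19) and Crebbp (-0.50, SE 0.13, probe sets -0.50 to 0.31) were lower, and the probe sets of each disagreed in sign. Ncoa2 also lies on chromosome 1.

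The 6 receptor targets lay on both sides of GFP. Of these targets, 1, Fkbp5, was below GFP on all 3 arrays, where 25.6% of all genes were. On all 3 arrays 3 targets, Sgk1, Klf9 and Dusp1, were above GFP, where 32.5% of all genes were. The median over the 6 targets was 0.10, beside 0.03 over all genes, and the medians of single arrays were 0.13, -0.00067 and 0.11. None of the 6 reached a 2-fold difference in either direction, beside 0.973% of all genes higher and 0.704% lower. Of the 9 genes besides Hsd11b1, 0 passed limma's test, against 0.0% of all genes. Fkbp5 alone of these 9 had an unadjusted p under 0.05, beside 14.0% of all genes. Because the genes were chosen with this comparison in view, nothing is read from these counts.

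Fkbp5, a cochaperone that holds the receptor in a state of low affinity and is induced by it, was the one target lower throughout. It was 8.03 in GFP and 7.57, 7.50 and 7.68 in replicates 1, 2 and 3, a difference of -0.44 (SE 0.13, limma 95% interval -0.79 to -0.10), which is 1.36-fold. The groups did not overlap. A further probe set gave 6.67 in GFP and 6.26, 6.16 and 6.16, a difference of -0.47, and the remaining one was near the bottom of the scale at 1.48 to 1.52. Fkbp5 lies on chromosome 17, where 53.4% of the genes above the median level were below GFP on all 3 arrays and the median was -0.13. The part of that shift in the value of Fkbp5 was not tested.

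Tsc22d3, whose product GILZ restrains inflammatory transcription factors, was 6.12 in GFP and 6.34, 6.07 and 6.18 in replicates 1, 2 and 3. By this probe set the groups overlapped, with a difference of 0.07 (SE 0.16, limma 95% interval -0.35 to 0.50). The difference was 0.0025 without replicate 1 and 0.14 without replicate 2. The other probe sets all lay above GFP on all 3 arrays, by 0.33, 0.27 and 0.19. The mean over its 4 probe sets gave 0.22.

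Per1, a repressor of the circadian clock that glucocorticoid induces rapidly, was 5.20 in GFP and 5.38, 5.13 and 5.15 in replicates 1, 2 and 3. Its difference was 0.02 (SE 0.16, limma 95% interval -0.41 to 0.44), with GFP inside the range of the other arrays. Under quantile normalization of the arrays the difference was -0.0050.

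Sgk1, a kinase that regulates ion channels and cell survival, was 8.87 in GFP and 8.96, 8.92 and 9.12 in replicates 1, 2 and 3. The 3 arrays lay above GFP, by a mean of 0.13 (SE 0.12, limma 95% interval -0.21 to 0.47), and by 0.07 without replicate 3. Windows of Hsd11b2 and Nr3c1 were not analysed here. Of the 16 RefSeq windows searched for the other 8 genes, 1 of the Sgk1 windows alone holds the full response element, at position -189 from a start. The element was in 0.00913% of the 32851 windows in the table (3 of them). That window is shown for this element, with the full element and a further single arm in capitals (GRCm38.p6, chr10:21993640-21993939, plus strand).
Sgk1: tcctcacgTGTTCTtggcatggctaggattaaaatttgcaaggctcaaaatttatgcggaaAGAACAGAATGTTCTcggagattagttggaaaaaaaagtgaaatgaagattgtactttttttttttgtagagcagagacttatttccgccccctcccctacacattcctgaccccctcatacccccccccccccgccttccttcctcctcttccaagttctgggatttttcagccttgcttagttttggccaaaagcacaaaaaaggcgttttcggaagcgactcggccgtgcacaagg

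The single arm AGAACA was in 19.0% of all windows. Among the genes studied it was in windows of Sgk1, H6pd and Tsc22d3, the last shown here with the arm in capitals, on the minus strand of chromosome X (GRCm38.p6, chrX:140600702-140600707). The windows of Hsd11b1, Fkbp5, Per1, Klf9 and Dusp1 held neither the full element nor the single arm. That says only that those letters are not in these windows.
Tsc22d3: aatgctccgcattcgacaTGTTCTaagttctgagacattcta

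Klf9, a zinc-finger transcription factor and a widely shared glucocorticoid target, was the member furthest above GFP. It was 8.12 in GFP and 8.66, 8.44 and 8.30 in replicates 1, 2 and 3, a difference of 0.34 (SE 0.18, limma 95% interval -0.14 to 0.83). Of its 7 probe sets 4 were above GFP on all 3 arrays and 0 were below on all 3. The probe set with the largest difference was 6.39 in GFP and 7.28, 7.03 and 6.94, a difference of 0.70, which is 1.62-fold. A further one was 6.93 in GFP and 7.52, 7.23 and 7.20. Replicate 1 was the highest of the 3 arrays in each of these probe sets.

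Dusp1, a phosphatase that switches off MAP kinases, was 10.3 in GFP and 10.3, 10.6 and 10.6 in replicates 1, 2 and 3. The difference was 0.20 (SE 0.15, limma 95% interval -0.20 to 0.60), with replicate 1 only 0.02 above GFP. Dusp1 shares chromosome 17 with Fkbp5 and lay on the other side of GFP. Its window holds the cyclic AMP element and an E-box, which were in 1.79% and 7.15% of all windows.

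**Figure D3:**
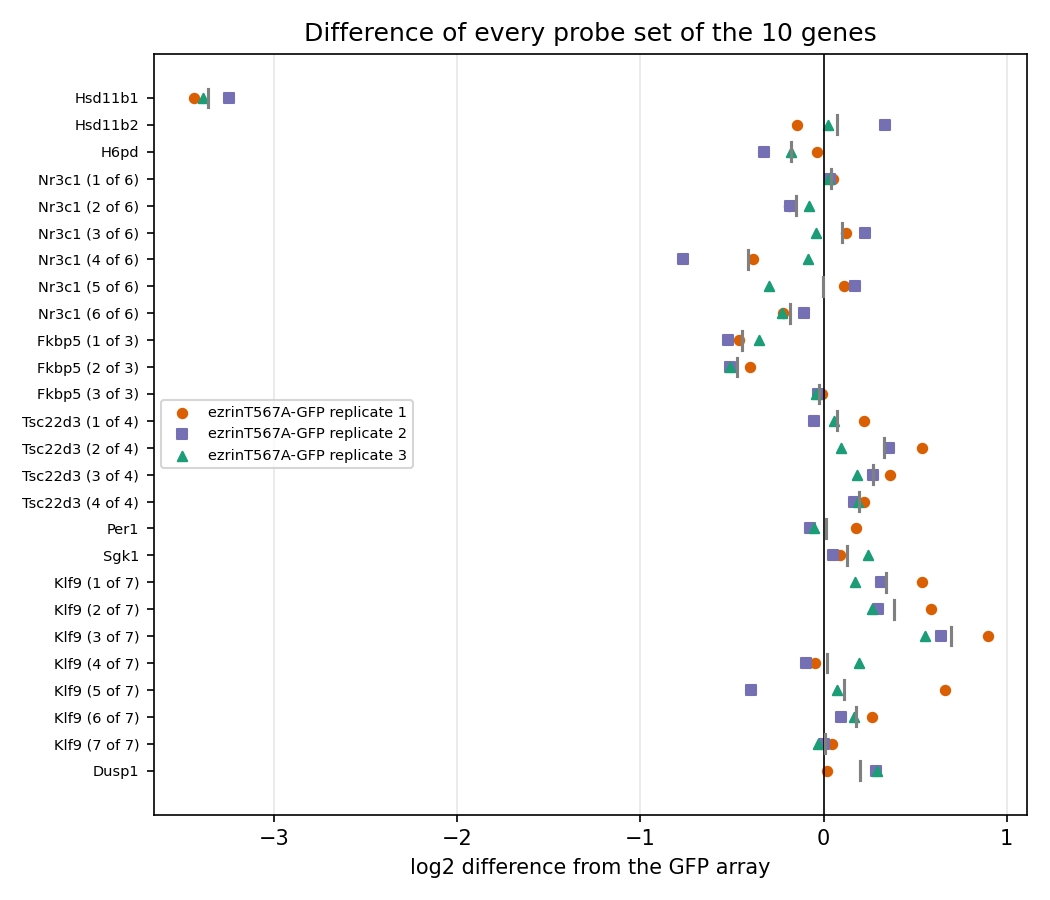
Difference from the GFP array (log2, horizontal axis) of all 26 probe sets of the 10 genes on each ezrinT567A-GFP array (points), with a grey mark at the mean. Probe sets of a gene are ordered from the brightest. Hsd11b1 lies near -3.36, and all other probe sets have means between -0.47 and 0.70.

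The limma intervals given for these genes rest on the spread of the 3 ezrinT567A-GFP arrays and assume that the single GFP array varies like them. In such bulk RNA, fewer cells that express a gene and less RNA per cell cannot be told apart.

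A wider list of glucocorticoid-induced genes, 49 of them measured and the 6 targets among them, was split. Higher were 29 and lower 20, of which 13 were above and 12 below GFP on all 3 arrays, beside 32.5% and 25.6% of all genes. The median was 0.07, beside 0.03 over all genes, and 0.023 without replicate 1. Limma's test passed 0 in either direction, and 8 had an unadjusted p under 0.05, beside 14.0% of all genes. At least 2-fold apart were 2 genes, 1 in each direction, beside 0.973% of all genes higher and 0.704% lower.

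The genes of that list furthest above GFP were Cebpd and Lpin1. Cebpd, a transcription factor induced by glucocorticoid and also a known regulator of Hsd11b1, was 5.73 in GFP and 6.28, 7.64 and 7.36 in replicates 1, 2 and 3. The difference was 1.36 (SE 0.58) by this probe set and 0.25 by a further one, and replicate 1 lay well below the other arrays. Replicate 2, the highest, also had the highest spike-in signal, whose part was not tested. Lpin1, a phosphatidate phosphatase of fat synthesis, was 5.29 in GFP and 6.10, 6.26 and 6.18, a difference of 0.89 (SE 0.13), with 1.34 by a further probe set.

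Among its genes above the median level, Glul and Tns1 were furthest below. Glul, glutamine synthetase, was 9.39 in GFP and 7.92, 7.91 and 8.34 in replicates 1, 2 and 3, a difference of -1.33 (SE 0.22), with -0.74 by a further probe set. Tns1, a focal adhesion protein, was 7.14 in GFP and 6.63, 6.14 and 6.31, a difference of -0.78 (SE 0.23, probe sets -1.24 to -0.75). Both lie on chromosome 1, as Hsd11b1 does. The 4 measured genes of the list on that chromosome had a median of -0.43, and the 45 on other chromosomes one of 0.08. The others of the 4, Rgs2 (-0.09) and Il1r2 (0.07), lay near GFP and under the median level of all genes. The part of the chromosome's shift in these values was not tested.

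Genes that glucocorticoid is known to repress were split as well. Over 21 measured genes the median was 0.02, with 12 higher and 9 lower, 6 of them above and 3 below GFP on all 3 arrays, beside 32.5% and 25.6% of all genes. The median was 0.011 without replicate 2 and 0.10 without replicate 3. Limma's test passed 0 of the 21, and 2 had an unadjusted p under 0.05, beside 14.0% of all genes. The collagenase gene Mmp13 had the largest difference and was 8.85 in GFP and 6.63, 6.38 and 6.63 in replicates 1, 2 and 3, which is -2.30 (SE 0.16).

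Besides Mmp13, the genes of that list below GFP on all 3 arrays were Mmp3 (-0.79, under the median level of all genes) and Mmp9 (-0.15). Both were named after their values were seen. Among the 6 above GFP on all 3 arrays were Ccl2, Vcam1 and Cxcl5. Ccl2, which draws monocytes, was 9.77 in GFP and 10.1, 10.6 and 9.97 in replicates 1, 2 and 3 (0.43, SE 0.27). Vcam1, a leukocyte adhesion molecule, differed by 0.31 (SE 0.14) and the neutrophil chemokine gene Cxcl5 by 0.29 (SE 0.29).

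**Figure D4:**
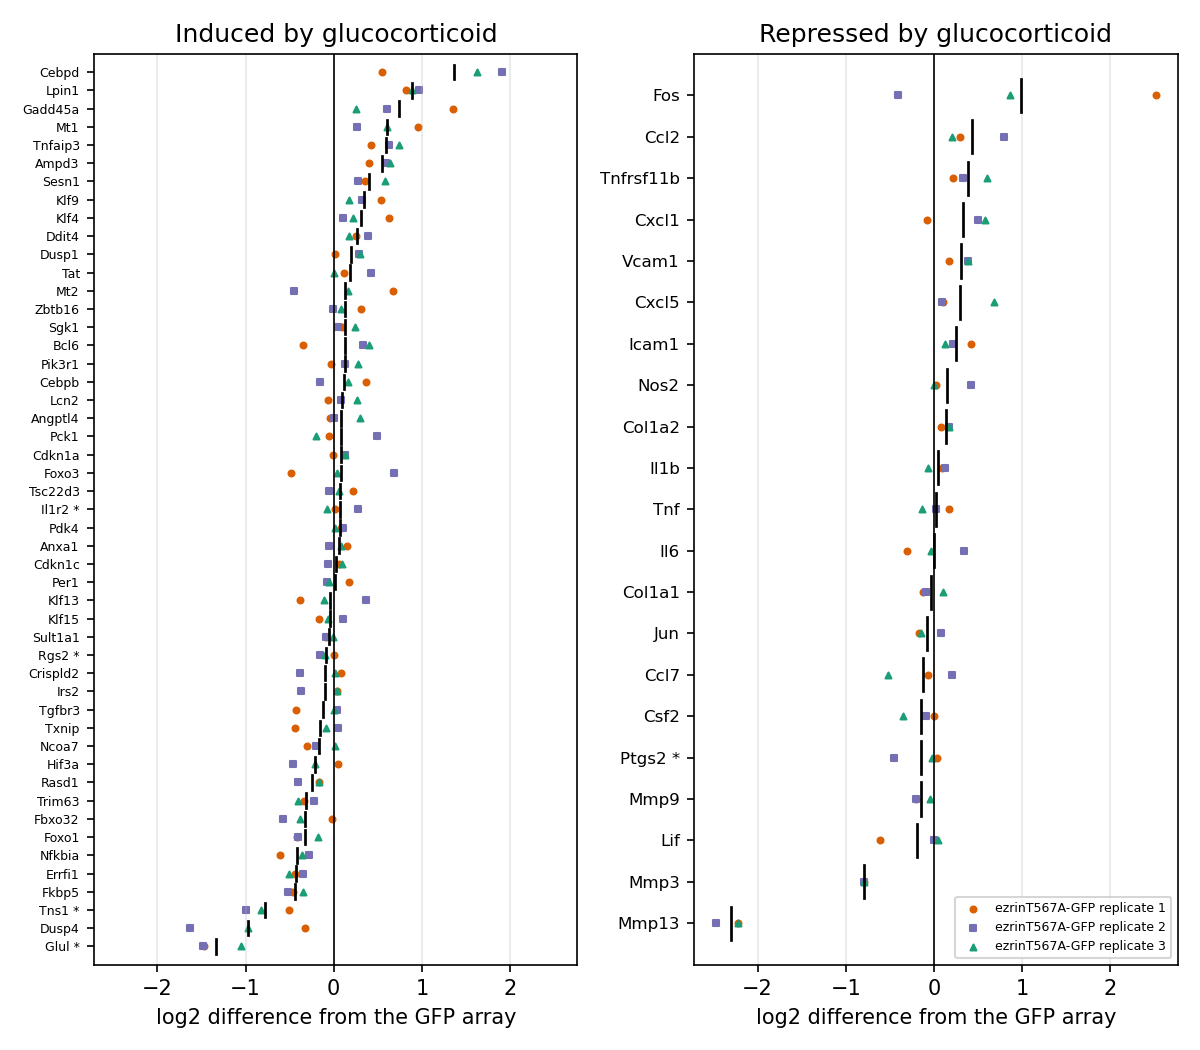
Difference from the GFP array (log2, horizontal axis) of 49 genes induced and 21 genes repressed by glucocorticoid, 1 gene a row, with points for single ezrinT567A-GFP arrays, a black mark at the mean and a star beside genes of chromosome 1. Both lists scatter around 0, with medians of 0.07 and 0.02, and Glul (-1.33) and Mmp13 (-2.30) stand lowest.

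Known regulators of Hsd11b1 were read last, 10 of them measured, with a median of 0.08, beside 0.03 over all genes. Limma's test passed 0 of them, and 2 had an unadjusted p under 0.05, beside 14.0% of all genes. Apart from Cebpd, Creb1, a cyclic AMP response factor on chromosome 1, differed by -0.55 (SE 0.19, probe sets -0.65 to -0.01) and Tcf7l2, a Wnt effector, by -0.39 (SE 0.19, probe sets -0.41 to 0.34). Rela, the NF-kB subunit p65, differed by 0.16 (SE 0.13). Cebpb, named after its values were seen, was 8.15 in GFP and 8.52, 7.99 and 8.31 in replicates 1, 2 and 3, with GFP inside that range.

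**Figure D5:**
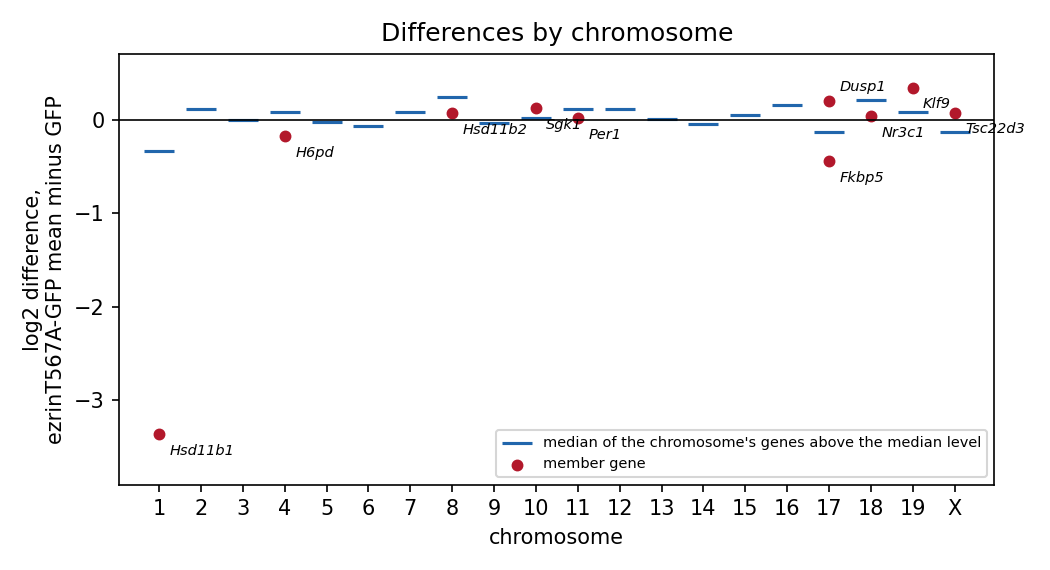
Difference of the ezrinT567A-GFP mean from GFP (log2, vertical axis) for the 10 genes (red points) on their chromosomes (horizontal axis), with a blue bar at the median of all genes of that chromosome above the median level. Chromosome 1 has the lowest median (-0.34), and Hsd11b1 is at -3.36.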

How the data were processed

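RNA of 4 K7M2 samples was measured on one-colour Affymetrix arrays. The authors deposited log2 expression per probe set, which the submitters' processing notes say came from RMA, and the log2 scale was read from the values. No source used here gives the RMA software. RMA makes the array distributions alike, and signal over background was not analysed here.

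Probe sets with 1 gene symbol in the platform annotation (34958 of 45101) gave 18193 genes, each represented by its brightest probe set, and control probe sets were left out. The gene table and promoters are RefSeq's for GRCm38.p6. Of 197 genes in the lists, 176 were measured. Groups came from the over-expression label. limma 3.58.1 in R 4.3.3 (lmFit, eBayes with a mean trend, 2 residual and 2.23 prior degrees of freedom) was fitted over all genes, with p adjusted after Benjamini and Hochberg and a threshold of 0.05. The fit was tested on simulated data in which all 4 arrays had the spread of the ezrinT567A-GFP arrays. That test cannot check whether the single GFP array varies like them. With 4 arrays, precision is limited by their number. Members and lists were chosen with earlier results of these data known. Named were all 10 members, up to 4 further genes of each list with the largest difference among those above the median level with all 3 arrays on one side of GFP, the 5 genes most like Hsd11b1, the 5 neighbours on either side, and 2 markers per list. Further markers and list genes were named to show where a cell type's defining gene lay or how members or probe sets differed. Alternatives were other normalizations, probe set rules, a level filter, other eBayes settings and leaving out each replicate. Figures used matplotlib 3.10.9.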

Additional observations from a re-analysis of the deposited data

How the results depend on the processing

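The difference of Hsd11b1 stayed between -3.41 and -3.32 when each ezrinT567A-GFP replicate was left out, and between -3.37 and -3.35 under the other alternatives run. The single GFP array cannot be left out. The count of genes past limma's threshold, 0 as reported, was 36 with the arrays quantile normalized, 6 with the arrays centred, 6 with the mean of probe sets, 3 without dim genes and 9 with a robust prior, and 0 with only the _at probe sets, without a trend, or without any 1 replicate. Hsd11b1 was among the genes past the threshold in each of those 5 settings with calls, with limma adjusted p from 0.00967 to 0.0361, beside 0.0805 as reported and 0.0712 to 0.558 in the others. It was chosen on this comparison, so these p-values support nothing. The median of the glucocorticoid-induced genes was 0.039 with only the _at probe sets and 0.023 to 0.049 without single replicates, and that of the repressed genes 0.011 to 0.10 without single replicates. Leaving out genes of chromosome 1, a choice made after seeing the data, gave 0.08 and 0.04 for these lists. The median of the 6 targets ranged from 0.07 to 0.16. Hsd11b2, Nr3c1 and Per1 changed sign under some alternatives, at -0.06, -0.10 and -0.06 at the lowest. Hsd11b2 was too dim to give a value when dim genes were left out. The causes of these shifts were not tested. No paired analysis was possible because the GFP group has 1 array and no replicate number in its label.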
